A study of Homo sapiens with 6 samples.

Results

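The 42 genes described here encode proteins of the G2/M transition, the spindle assembly checkpoint and the kinetochore, together with their partners in the spindle, in chromosome structure and in cytokinesis. They were taken from the count table by gene symbol. All 42 were found among the 56303 genes of the count table, and all 42 were among the 19916 genes that passed the filter on low counts. Messenger RNA was sequenced in 786-O, an established clear cell renal cell carcinoma line without functional VHL. In the control group (3 libraries), cells labelled WT received a control siRNA and the labels give 0 h. In the NFE2L3 knockdown group (3 libraries), the same line received an siRNA against NFE2L3, a CNC-family transcription factor, and the labels give 48 h, so effects of the siRNA and of time cannot be told apart. The sources used here do not say which NFE2L3 siRNA the cells received. The genotype field of knockdown 2 and knockdown 3 names NFE2L4 and NFE2L5 instead, while their titles and source names give NFE2L3. The study asked which transcripts NFE2L3 controls in this line, and the comparison here asks how the mitotic genes stood after its knockdown, with the kinetochore and checkpoint genes set against the mitotic kinases and cyclins.

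Cells build most of these proteins late in the cycle. Cyclin B with CDK1 drives entry into mitosis, the kinetochore joins each centromere to spindle microtubules, and the checkpoint holds back anaphase until every kinetochore is attached. The anaphase-promoting complex with CDC20 then marks cyclin B and securin for destruction, and separase cuts cohesin. Most of the genes are transcribed in a common wave that peaks in G2 and mitosis. Early in the cycle the DREAM complex represses them through the cell cycle genes homology region (CHR) of their promoters, and later MYB-MuvB and FOXM1 activate them through the same element, while NF-Y binds nearby CCAAT boxes.

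These letters were looked for in the RefSeq promoter windows of GRCh38.p14 (250 bases before to 50 after each start) on both strands, as TTTGAA or TTCGAA for the CHR and as CCAAT for the NF-Y box. RefSeq windows matched 35 of the 42 genes (46 windows). The CHR letters were in 30 of the 46 windows (65.2%), against 16.4% of all 35116 windows. The CCAAT letters were in 32 (69.6%) against 34.6%, and both were in 23 (50%) against 6.38%. A match is a description of the letters and not of a bound site. The 4 promoters below are those of the 2 genes with the largest rises (CENPE and CENPF), of TOP2A, which fell, and of CCNB2, which did not differ, chosen after their values were seen. Each is given 5′ to 3′ on the gene's own strand, from 160 bases before the annotated start to 50 bases after it, with the searched letters in capitals. CENPE lies on the minus strand at chr4:103198294-103198503, CENPF on the plus strand at chr1:214603035-214603244, TOP2A on the minus strand at chr17:40417847-40418056 and CCNB2 on the plus strand at chr15:59104986-59105195.
CENPE: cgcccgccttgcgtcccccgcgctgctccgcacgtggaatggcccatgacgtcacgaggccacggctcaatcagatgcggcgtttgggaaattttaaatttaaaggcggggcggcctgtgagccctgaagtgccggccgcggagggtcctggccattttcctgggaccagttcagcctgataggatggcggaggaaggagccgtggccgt
CENPF: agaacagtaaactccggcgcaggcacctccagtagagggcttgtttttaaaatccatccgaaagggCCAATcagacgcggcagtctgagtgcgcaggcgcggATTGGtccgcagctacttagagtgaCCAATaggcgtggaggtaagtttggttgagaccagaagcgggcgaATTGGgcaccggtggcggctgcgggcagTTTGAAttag
TOP2A: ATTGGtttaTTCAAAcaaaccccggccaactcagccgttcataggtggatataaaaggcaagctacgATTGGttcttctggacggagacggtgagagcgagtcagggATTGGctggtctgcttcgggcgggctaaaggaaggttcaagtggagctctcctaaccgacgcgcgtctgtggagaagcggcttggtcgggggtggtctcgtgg
CCNB2: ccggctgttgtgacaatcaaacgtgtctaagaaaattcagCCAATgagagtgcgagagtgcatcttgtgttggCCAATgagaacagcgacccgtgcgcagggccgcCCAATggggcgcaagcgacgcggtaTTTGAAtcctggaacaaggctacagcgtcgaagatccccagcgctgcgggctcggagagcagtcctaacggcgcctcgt
The whole window of CENPE held none of the searched letters, and other forms of these elements were not looked for. That of CENPF had its CHR letters 41 bases after the start and CCAAT letters at 94, 58 and 33 bases before it and 13 after it. In CCNB2 the CHR letters lay 29 bases before the start and the CCAAT letters 54, 87, 120 and 244 bases before it. In TOP2A the CHR letters stood farther out, at 151 and 194 bases, and the CCAAT letters at 53, 93, 160 and 244 bases before the start.

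The total counts ran from 51828446 to 57391929 per library, mitochondrial transcripts took 4.0% to 4.39% of them. The 42 genes together took 0.812%, 0.771% and 0.748% of the counts in controls 1 to 3 and 0.839%, 0.825% and 0.864% in knockdowns 1 to 3, without overlap. When CENPE and CENPF were left out, after their values were seen, the shares of the groups overlapped. NFE2L3 stood at 116, 113 and 115 CPM (read counts scaled to library size with TMM) in controls 1 to 3 and at 19.5, 19.1 and 20.8 CPM in knockdowns 1 to 3, a log2 fold change of -2.54 ± 0.0482 (SE, n = 3 and 3, adjusted p = 3.98e-22 in edgeR's quasi-likelihood test). Every library thus matched its title for the targeted gene. Of 11 renal carcinoma markers 10 passed the low-count filter, with PAX8 at 99.7 and KRT8 at 213.9 TPM (levels scaled for gene length as well as depth) in the controls. Their summed level was 1351 to 1381 TPM in the controls and 1208 to 1256 TPM in the knockdowns, and 1 of the 10 was higher and 5 were lower. CA9 had at most 6 counts in any library. Of 10 leukocyte, endothelial and fibroblast markers 5 passed that filter, none was called, and their sum was 3.54 to 3.65 TPM in the controls and 3.03 to 3.72 TPM in the knockdowns. Those that passed were PTPRC, PECAM1, DCN, LUM and COL1A1, and LUM made up most of the sum. Among those that did not pass, CDH5 was at 0 in all libraries and CD3E, LYZ and VWF had at most 10 counts.

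After NFE2L3 knockdown the 42 genes moved in both directions, and most of them moved little. CENPE and CENPF, a motor and a scaffold of the outer kinetochore, rose by 1.04 and 0.74 on the log2 scale. SMC4 and HMMR rose less, and CDC25B, TOP2A, AURKB and FOXM1 fell by 0.38, 0.37, 0.32 and 0.31. The cyclins A2 and B2, CDK1, PLK1 and 4 of the 5 checkpoint genes did not pass the test. At an adjusted p under 0.05, 9 of the 42 were higher (21.4%) and 7 were lower (16.7%), while 12.7% of all 19916 tested genes were higher and 14.0% were lower. Among the 7592 genes at least as abundant as the lowest of the 42 (CDC25C, at a mean of 17.9 CPM), 19.5% were higher and 24.1% were lower. That restriction was added after the values were seen, because all 42 genes were well expressed. The 42 thus held more calls than all tested genes (16, or 38.1%, against 26.7%) and fewer than genes of comparable level (43.7%), which is a description, since the genes were not chosen blind to these data. RNA from bulk cells cannot tell apart fewer cells in G2 and mitosis and less of a transcript per cell. By flow cytometry, the paper reported a larger G0/G1 percentage in 786-O cells after NFE2L3 knockdown. How that measurement bears on these libraries was not tested.

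The changes were small beside those of other genes. Of the 16 called genes, 9 changed by less than 1.2-fold and 14 by less than 1.5-fold. The median size of the log2 fold change was 0.08 over the 42 genes, 0.11 over the genes of comparable level and 0.16 over all tested genes. The medians with sign were -0.03, -0.02 and -0.00066 in the same order. CENPE alone reached a 2-fold change. With the cutoffs of the study, an unadjusted p under 0.05 and a fold of at least 2, CENPE was the 1 gene higher and 0 were lower, against 0.723% and 0.377% of all tested genes. Without control 3 its log2 fold change was 0.93, under 2-fold, so that call rests on control 3. The libraries of the groups did not overlap for 20 of the 42 genes, 10 in each direction, and for 39.5% of all tested genes. Among the 7592 genes of comparable level 4214 did not overlap, a larger share than among the 42. These 20 were the 16 called genes with BUB3, DLGAP5, NCAPG and ECT2. Of the 42 genes, 21 had an unadjusted p under 0.05.

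**Figure D1:**
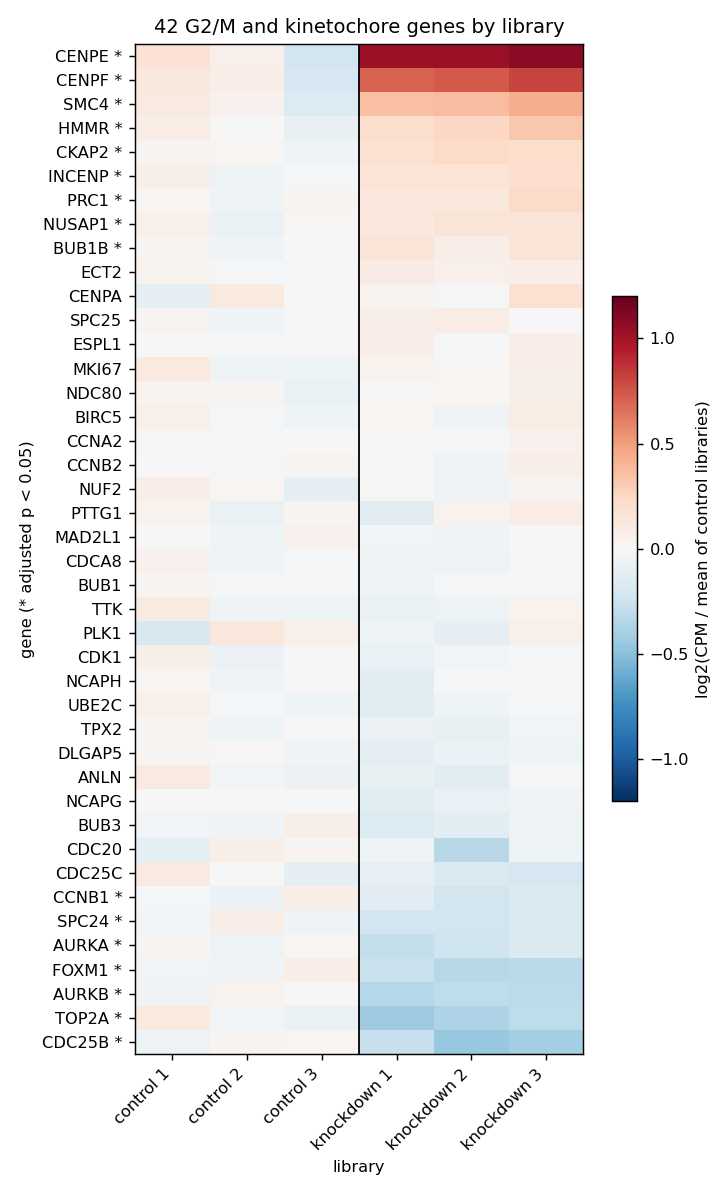
Heat map of the 42 genes (rows, ordered by log2 fold change) in the 6 libraries (columns), coloured by log2 of the CPM over the mean of the control libraries. Genes with an asterisk had an adjusted p under 0.05. CENPE and CENPF are red in all 3 knockdown libraries and light blue in control 3, and the rows between BUB1B and CCNB1 are mostly close to white.

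Of the 5 spindle checkpoint genes, BUB1B rose and the others did not pass the test (20% called, against 43.7% of genes of comparable level). BUB1B encodes BUBR1, the pseudokinase of the mitotic checkpoint complex that holds CDC20. It stood at 211, 199 and 207 CPM in controls 1 to 3 and at 229, 218 and 229 CPM in knockdowns 1 to 3. The groups did not overlap, with a log2 fold change of 0.13 ± 0.0399 (SE, adjusted p = 0.0163). The call was lost without control 2, knockdown 1 or knockdown 3, with an adjusted p of up to 0.0883. Its exons share 457 bases with the read-through gene BUB1B-PAK6 on the same strand, so the split of reads between them is uncertain. BUB3, which carries BUB1 and BUBR1 to kinetochores, had 43.0, 42.8 and 46.2 CPM in the controls and 39.1, 40.2 and 42.5 CPM in the knockdowns, each knockdown library below each control, with a log2 fold change of -0.12 ± 0.0503 and an adjusted p of 0.094. The kinase BUB1, which recruits the others, had 134, 129 and 129.6 CPM and 127, 129.7 and 129 CPM in the same order, and the groups overlapped. MAD2L1 encodes MAD2, the protein that binds CDC20 at unattached kinetochores. It had 59.3, 57.1 and 61.5 CPM in the controls and 58.2, 57.5 and 59.2 CPM in the knockdowns. TTK (MPS1), the kinase that starts the checkpoint signal, had 57.1, 50.9 and 50.8 CPM in the controls and 49.9, 50.5 and 54.5 CPM in the knockdowns. For these last 3 genes the 95% intervals of the log2 fold change lay between -0.14 and 0.07, and the adjusted p was 0.656 to 0.730.

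Kinetochore and centromere genes had 2 higher and 1 lower of 7 (42.9% called, against 43.7% of genes of comparable level). CENPE and CENPF rose, SPC24 fell, and the other 4 genes did not pass the test. CENPE, the plus-end-directed kinesin that brings chromosomes to the metaphase plate, had 184, 170.5 and 139 CPM in controls 1 to 3 and 334, 336 and 347 CPM in knockdowns 1 to 3. Its lowest knockdown library was well above its highest control, and the log2 fold change was 1.04 ± 0.0614 (95% interval 0.92 to 1.17, adjusted p = 4.98e-12), a 2.06-fold rise. CENPF, a large coiled-coil protein that appears on kinetochores in G2, had 737, 713 and 589 CPM in the controls and 1104, 1125 and 1189 CPM in the knockdowns. The log2 fold change was 0.74 ± 0.0558 (95% interval 0.63 to 0.86, adjusted p = 3.2e-10), or 1.68-fold. Both genes were lowest in control 3, by a log2 difference of -0.35 for CENPE and -0.30 for CENPF from the mean of the other controls. Their controls varied more than those of any other of the 42 genes, with coefficients of variation of 13.9% and 11.7% against a median of 4.39%. Without control 3 the log2 fold changes were 0.93 and 0.65, and both remained called.

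SPC24 belongs to the NDC80 complex, the rod of SPC24, SPC25, NDC80 and NUF2 that holds the microtubule end. It had 63.1, 68.6 and 62.6 CPM in the controls and 55.3, 55.4 and 57.5 CPM in the knockdowns. All 3 knockdown libraries lay below all controls, with a log2 fold change of -0.21 ± 0.0467 (adjusted p = 0.00136). The other subunits did not follow it. SPC25 had 28.0, 26.6 and 27.6 CPM in the controls and 28.9, 29.1 and 27.3 CPM in the knockdowns, and NDC80 and NUF2 had log2 fold changes of 0.03 ± 0.0424 and 0.00032 ± 0.0453. CENPA, the histone H3 variant that marks the centromere, had 27.2, 32.0 and 29.3 CPM in the controls and 30.3, 29.1 and 33.4 CPM in the knockdowns, which overlapped, and its exons share 138 bases with SLC35F6 on the same strand.

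Of the 8 cyclin, kinase and CDC25 genes among the 42, 3 fell, 0 rose and 5 did not pass the test (37.5% called, against 43.7% of genes of comparable level). CDC25B, the phosphatase that first activates cyclin-dependent kinases before mitosis, had 82.8, 88.5 and 88.1 CPM in controls 1 to 3 and 71.3, 63.0 and 65.1 CPM in knockdowns 1 to 3. The log2 fold change was -0.38 ± 0.0482 (adjusted p = 1.48e-06), close to that of TOP2A. AURKA, the centrosome and spindle pole kinase, had 65.3, 61.1 and 64.9 CPM in the controls and 52.3, 53.9 and 56.5 CPM in the knockdowns, a log2 fold change of -0.23 ± 0.0465 (adjusted p = 0.000433). CCNB1, the main mitotic cyclin, had 75.8, 73.1 and 81.2 CPM in the controls and 69.7, 65.7 and 68.0 CPM in the knockdowns. It did not overlap between the groups, and the log2 fold change was -0.18 ± 0.0464 (adjusted p = 0.0054).

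The other cyclins and CDK1 did not pass the test. CDK1, the kinase that both B cyclins activate, had 210.4, 191 and 201 CPM in the controls and 190.0, 196 and 198 CPM in the knockdowns, and its groups overlapped (log2 fold change -0.05, 95% interval -0.13 to 0.04). CCNB2, the Golgi-associated B cyclin, had 74.7, 74.1 and 76.8 CPM and 74.0, 73.1 and 79.7 CPM, and its interval was -0.08 to 0.10. CCNA2, which acts in S phase and in early mitosis, had 81.6, 80.5 and 81.1 CPM in the controls and 81.0, 81.3 and 84.0 CPM in the knockdowns (interval -0.07 to 0.10). PLK1, the kinase of centrosome maturation and mitotic exit, was uneven among its controls at 78.0, 97.6 and 92.8 CPM, with the lowest value in control 1, and had 86.0, 82.6 and 92.8 CPM in the knockdowns. Its log2 fold change was -0.04 ± 0.06, with a 95% interval of -0.16 to 0.08. CDC25C, the phosphatase that removes the inhibitory phosphates of CDK1 at mitosis, had a log2 fold change of -0.16 with an adjusted p of 0.0773.

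**Figure D2:**
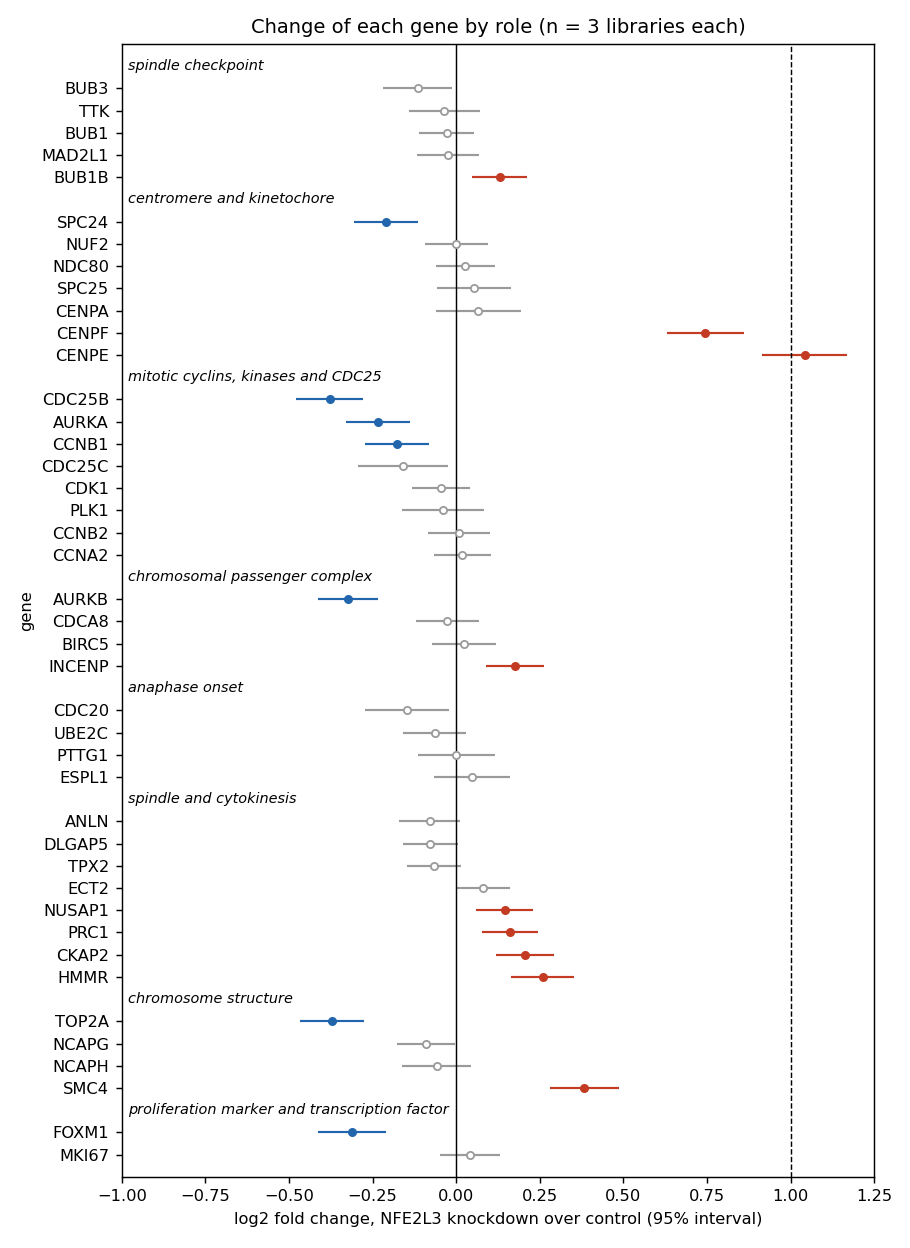
Log2 fold change of each of the 42 genes, NFE2L3 knockdown over control, with its 95% interval from the quasi-likelihood fit, grouped by role. Filled red and blue points are genes higher and lower at an adjusted p under 0.05, open grey points did not pass, and the dashed line marks a 2-fold rise, which CENPE reached with 1.04.

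The chromosomal passenger complex had 1 higher and 1 lower of 4 genes (50% called, against 43.7% of genes of comparable level). It is the 4-protein machine that corrects wrong attachments and later guides cytokinesis, with Aurora B as its kinase. AURKB itself fell, from 78.3, 82.9 and 80.4 CPM in controls 1 to 3 to 63.4, 65.1 and 64.6 CPM in knockdowns 1 to 3 (log2 fold change -0.32 ± 0.0429, adjusted p = 2.68e-06). The scaffold gene INCENP rose, from 163, 149 and 153 CPM in the controls to 173, 173 and 178 CPM in the knockdowns (log2 fold change 0.18 ± 0.0416, adjusted p = 0.00244). Neither gene overlapped between the groups. BIRC5 (survivin) and CDCA8 (borealin), which place the complex on chromatin, had log2 fold changes of 0.02 ± 0.0457 and -0.03 ± 0.0454 and overlapped.

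These differences inside complexes were also read as ratios of TPM within a library, which are free of any scaling between libraries. All 15 pairs within the passenger complex, the NDC80 complex and the trio of CCNB1, CCNB2 and CDK1 were formed after the values had been seen, so they are given without a test. The ratio of AURKB to INCENP was 0.958, 1.11 and 1.05 in controls 1 to 3 and 0.730, 0.749 and 0.724 in knockdowns 1 to 3. The AURKB transcript was thus near the level of INCENP in the controls and below it in every knockdown library. AURKB was lower against BIRC5 and CDCA8 too, and INCENP was higher against both, each without overlap. The ratio of SPC24 to NDC80 was 0.628, 0.684 and 0.675 in the controls and 0.566, 0.559 and 0.561 in the knockdowns. SPC24 was also lower against SPC25 and NUF2, whereas the ratios among SPC25, NDC80 and NUF2 overlapped. CCNB1 exceeded CCNB2 in all controls (1.11, 1.08 and 1.16) and in knockdown 1 (1.03) but not in knockdowns 2 and 3 (0.985 and 0.935). In all, 9 of the 15 ratios did not overlap between the groups. Each of the 9 held AURKB, INCENP, SPC24 or CCNB1, which were called singly, so they are not separate observations. The share of such ratios among other pairs of genes was not computed. CCNB1 to CDK1, CCNB2 to CDK1 and BIRC5 to CDCA8 were among the ratios that overlapped.

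**Figure D3:**
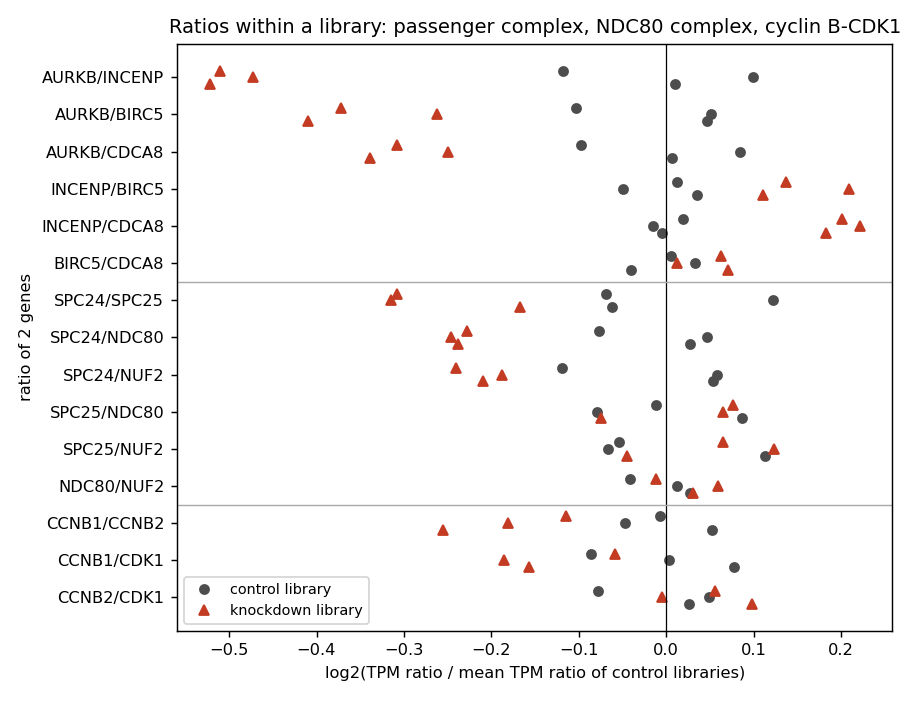
The 15 within-library TPM ratios, each as log2 of the ratio over its mean in the control libraries. Grey circles are control libraries and red triangles are knockdown libraries. The 3 knockdown values of AURKB/INCENP lie near -0.50, apart from the controls around 0, while the 2 groups mix for NDC80/NUF2.

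None of the 4 genes of anaphase onset passed the test. CDC20, the activator of the anaphase-promoting complex, had 49.99, 56.6 and 55.0 CPM in the controls and 51.5, 42.8 and 51.8 CPM in the knockdowns, with its low value in knockdown 2 and a log2 fold change of -0.15 ± 0.061 (adjusted p = 0.0787). UBE2C, the ubiquitin-conjugating enzyme of that complex, PTTG1 (securin) and ESPL1 (separase) had log2 fold changes of -0.06, -0.00016 and 0.05. Their libraries overlapped. ESPL1 had the lowest TPM of the 42 genes at 8.15 ± 0.0513 (SD, n = 3) in the controls and 8.41 ± 0.281 in the knockdowns.

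Of the spindle and cytokinesis genes, 4 of 8 rose and 0 fell (50% called, against 43.7% of genes of comparable level), and 2 of the 4 calls, PRC1 and NUSAP1, were lost when a single library was left out. HMMR, a spindle assembly factor that is also a hyaluronan receptor, had 176, 166 and 156 CPM in controls 1 to 3 and 191, 197 and 208 CPM in knockdowns 1 to 3. The log2 fold change was 0.26 ± 0.0455 (adjusted p = 0.000111). CKAP2, a microtubule-associated protein of the spindle poles, had 87.4, 87.2 and 82.6 CPM in the controls and 97.2, 101 and 99.1 CPM in the knockdowns, a rise of 0.21 ± 0.042 on the log2 scale (adjusted p = 0.000529). PRC1, which bundles antiparallel microtubules in the central spindle, had 482, 459 and 486 CPM and 519, 519 and 557 CPM in the same order, with knockdown 3 the highest. Its log2 fold change was 0.16 ± 0.0403 (adjusted p = 0.00373), and the call was lost without knockdown 3 (adjusted p = 0.0561). NUSAP1, which links microtubules to chromatin, had 235, 214 and 228 CPM in the controls and 247, 251 and 251 CPM in the knockdowns. Its rise of 0.14 ± 0.0409 (adjusted p = 0.0094) lost the call without control 2 (adjusted p = 0.0781).

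The other 4 spindle and cytokinesis genes had log2 fold changes between -0.08 and 0.08 and did not pass the test. TPX2, which activates AURKA on spindle microtubules, had the highest TPM of the 42 genes at 355.3 ± 9.38 in the controls and 339 ± 4.94 in the knockdowns. ANLN, the actin-binding scaffold of the cleavage furrow, and DLGAP5, which stabilises kinetochore fibres, had log2 fold changes of -0.08 and -0.08. ECT2, the exchange factor that activates RhoA at the furrow, had 0.08 ± 0.0384, with knockdown libraries all above the controls and an adjusted p of 0.128. Some of these genes lie over transcripts of the other strand. PRC1 shares 406 exon bases with PRC1-AS1 and HMMR 113 with HMMR-AS1, and whether the authors counted by strand is not stated in the labels or methods, so reads of the 2 strands may not be told apart.

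Chromosome structure genes had 1 higher and 1 lower of 4 (50% called, against 43.7% of genes of comparable level). TOP2A, the topoisomerase that untangles sister chromatids, had 610.5, 551 and 533 CPM in controls 1 to 3 and 417, 435 and 458 CPM in knockdowns 1 to 3. All knockdown libraries lay below all controls (log2 fold change -0.37 ± 0.0464, adjusted p = 1.17e-06). SMC4, the ATPase core of condensin, had 539, 518 and 447 CPM in the controls and 643, 645 and 674 CPM in the knockdowns (log2 fold change 0.38 ± 0.0499, adjusted p = 2.02e-06). It was lowest in control 3, like CENPE and CENPF, and its change without that library was 0.31. The condensin I subunits NCAPG and NCAPH did not rise with it and had log2 fold changes of -0.09 and -0.06 (adjusted p = 0.113 and 0.438). SMC4 shares 1561 exon bases with TRIM59 and 607 with IFT80 on the other strand, and NCAPG shares 1631 bases with LCORL, which is 33.1% of its exon length.

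FOXM1, the transcription factor that activates much of the G2 programme, fell, and MKI67 did not pass the test. FOXM1 had 50.2, 49.8 and 54.3 CPM in the controls and 42.6, 40.7 and 41.0 CPM in the knockdowns (log2 fold change -0.31 ± 0.0486, adjusted p = 2.45e-05), and shares 781 exon bases with ITFG2 on the other strand. MKI67, the Ki-67 proliferation marker that coats mitotic chromosomes, had 1396, 1235 and 1234 CPM in the controls and 1324, 1299 and 1352 CPM in the knockdowns, the highest CPM of the 42 genes. Its log2 fold change was 0.04 with a 95% interval of -0.05 to 0.13.

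**Figure D4:**
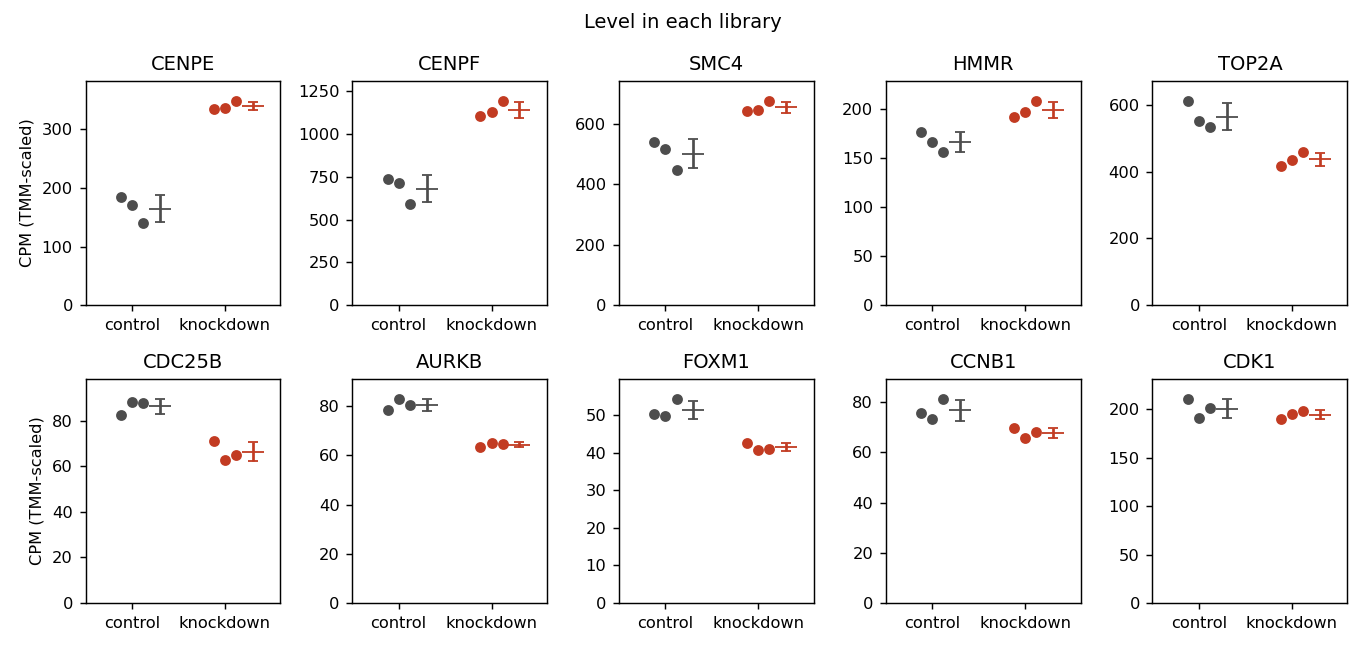
CPM of 10 of the 42 genes in each library (points, libraries 1 to 3 from left to right in each group) with the mean and SD (bars, n = 3). Each vertical axis starts at 0 and has its own scale. CENPE, CENPF, SMC4 and HMMR are higher in all knockdown libraries, TOP2A, CDC25B, AURKB, FOXM1 and CCNB1 are lower in all of them, and CDK1 overlaps.

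Set against each other, the kinetochore and checkpoint genes had a higher sum after knockdown and the mitotic kinases and cyclins a lower one, and CENPE and CENPF carried the higher sum. The first set held the 12 checkpoint and kinetochore genes, of which 3 were higher (CENPE, CENPF and BUB1B) and 1 was lower (SPC24), with a median log2 fold change of 0.01, which turned to -0.0054 without control 3 and to -0.0043 without knockdown 3. The second set held CCNA2, CCNB1, CCNB2, CDK1, PLK1, AURKA and AURKB, of which 0 were higher and 3 were lower, with a median of -0.05, which moved to -0.129 without control 1. The median over all tested genes was -0.00066. The shares called, 33.3% and 42.9%, were both below the 43.7% of genes of comparable level. The summed level of the first set was 938, 928 and 856.7 TPM in controls 1 to 3 and 1081, 1074 and 1113 TPM in knockdowns 1 to 3. That of the second set was 649.5, 651.2 and 662.5 TPM in the controls and 600.5, 599.8 and 618.7 TPM in the knockdowns. Neither sum overlapped between the groups. The ratio of the first to the second was 1.44, 1.42 and 1.29 in the controls and 1.80, 1.79 and 1.80 in the knockdowns.

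The first set was level once CENPE and CENPF were left out. The sum of the other 10 genes was 675.7 ± 15.7 TPM in the controls and 680.9 ± 10.8 TPM in the knockdowns (SD, n = 3 each), and it overlapped. Of the 10, 1 was higher and 1 was lower, and the median log2 fold change was -0.01. CENPE and CENPF made up 25.5% ± 1.96 of the summed TPM of the set in the controls and 37.5% ± 0.47 in the knockdowns. The ratio of the 10 genes to the kinases and cyclins was 1.03 ± 0.035 in the controls and 1.12 ± 0.0096 in the knockdowns. The sum over all 42 genes was 4647 ± 134 TPM and 4815 ± 92 TPM in the same order and overlapped, unlike their share of all counts given above. Leaving out CENPE and CENPF was decided after their values were seen, so these sums are a description.

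**Figure D5:**
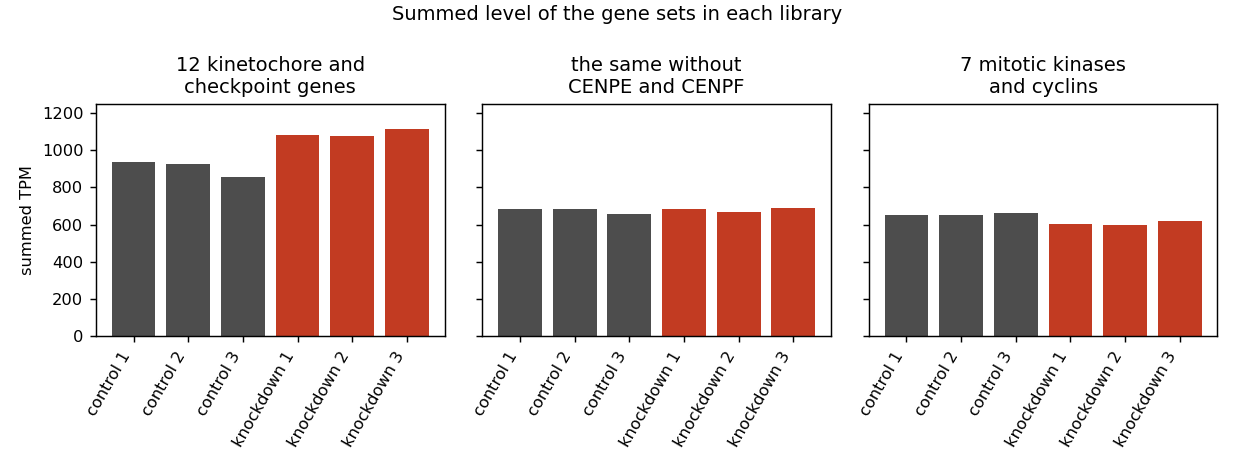
Summed TPM per library for the 12 kinetochore and checkpoint genes, for the same set without CENPE and CENPF, and for the 7 mitotic kinases and cyclins. Grey bars are control libraries and red bars are knockdown libraries. The first panel rises from 856.7 to 938 TPM in the controls to 1074 to 1113 TPM in the knockdowns, the middle panel is level, and the third falls from 649.5 to 662.5 TPM to 599.8 to 618.7 TPM.

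The 26 genes that did not pass the test are bounded closely by these libraries. Their log2 fold changes lay between -0.16 and 0.08, and their 95% intervals reached from -0.29 to 0.19, or 81.6% to 114.4% of the control level. A change of 2-fold lay outside the interval of each of them. Separate cultures are not stated, so these intervals may cover technical spread only. PLK1, CDC20, MKI67 and CDC25C, which are among the 26, were called when a single library was left out. The biological coefficient of variation over all genes was 4.76%. Between the control libraries the coefficient of variation was at most 13.9%, with PLK1 (11.5%) and SMC4 (9.61%) after CENPE and CENPF. Of the 9 higher genes, 5 had their lowest control value in control 3, as had 2 of the 7 lower genes. The part of that library in the rises was not tested beyond leaving it out, when the same 9 genes remained called.

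The promoter letters were also counted by the direction of the gene, as a description without a test. Of the 9 genes that rose, 7 had CHR letters and 5 had CCAAT letters in a window, and CENPE and CKAP2 had neither. Of the 5 fallen genes with a RefSeq window, 2 had CHR letters and 5 had CCAAT letters. Among the 21 uncalled genes with a window, 18 had CHR letters and 17 had CCAAT letters. The CCNB2 promoter shown above, with CHR and CCAAT letters near the start, thus belongs to a gene whose interval ran from -0.08 to 0.10, and the CENPE promoter without these letters to the gene that rose most. Absence of the letters from this window says nothing about the factors themselves.

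Other genes of the mitotic machinery, taken from 7 lists, also moved both ways. Of their 121 members, all tested, 31 were higher and 21 were lower (43.0% called), and their median log2 fold change was -0.0033. The shares called were 26.7% of all tested genes and 43.7% of those at least as abundant as CDC25C. Some of the listed genes lay below that level, so neither share is matched to them in level. Among 34 other kinetochore and centromere genes, 11 were higher and 5 were lower. SKA2, of the SKA complex that tracks microtubule ends, rose from 143.8 ± 1.58 to 177.4 ± 4.21 CPM (log2 fold change 0.30), and KNL1, listed as CASC5, the platform for BUB proteins, from 73.9 ± 5.49 to 95.2 ± 4.19 CPM (0.37). ZW10, of the complex that brings dynein to kinetochores, rose from 5.22 ± 0.427 to 8.4 ± 0.59 CPM (0.69). PMF1, a subunit of the MIS12 complex, fell from 19.4 ± 0.811 to 12.8 ± 0.544 CPM (-0.60), SKA1 by 0.28 and BOD1 by 0.16 on the log2 scale. The share called was 47.1%, against the 26.7% and 43.7% above, and the genes behind those shares also moved both ways. ZW10, PMF1 and SKA1 had means of 6.81, 16.1 and 15.0 CPM over all libraries, below CDC25C.

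The anaphase-promoting complex had 2 higher and 3 lower of 17 (29.4% called, against 26.7% of all tested genes and 43.7% at comparable level). CDC27, a subunit of its scaffold, fell from 52.2 ± 1.26 to 41.8 ± 1.12 CPM (log2 fold change -0.32), ANAPC10 changed by -0.24 and ANAPC16 by -0.18, while CDC26 and ANAPC2 changed by 0.14 and 0.26. Mitotic entry regulators had 3 higher and 5 lower of 15 (53.3% called, against the same 26.7% and 43.7%). CDC25A, the phosphatase of S phase entry, rose by 0.37 on the log2 scale, in contrast to CDC25B, and ENSA and CCNF rose by 0.15 and 0.22. CDKN3, CKS2 and MASTL changed by -0.21, -0.18 and -0.17. Of 11 genes of the DREAM and MYB-MuvB complexes, 2 were higher and 1 was lower (27.3% called, against the same 26.7% and 43.7%). RBL1 (p107), a pocket protein of DREAM, had a log2 fold change of 0.38, MYBL2 (B-MYB) of 0.16 and RBBP4 of -0.16. The activator MYBL2 and the activator FOXM1 thus differed in direction.

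The largest rise in these 7 lists was that of another motor. Of 12 other mitotic kinesins 2 were higher and 2 were lower (33.3% called, against 26.7% of all tested genes and 43.7% at comparable level). KIF20B, a kinesin of the midbody, rose from 68.1 ± 7.7 to 121.5 ± 5.33 CPM (log2 fold change 0.84, adjusted p = 8.11e-11). KIF14 had 0.16, and KIF20A and KIF2C had -0.26 and -0.13. Other condensin and cohesin genes had 5 higher and 3 lower of 15 (53.3% called, against the same 26.7% and 43.7%). SMC3, a core subunit of cohesin, rose from 347.1 ± 29 to 497.3 ± 13.6 CPM (0.52), and its partner RAD21, the subunit that separase cuts, fell from 878 ± 37.2 to 745 ± 18.4 CPM (-0.24). SGO2, which protects centromeric cohesin, rose by 0.33, STAG2 changed by 0.23 and STAG1 by -0.27, and NCAPG2 of condensin II by -0.21. Other spindle and cytokinesis genes had 6 higher and 2 lower of 17 (47.1% called, against the same 26.7% and 43.7%). CEP55, which recruits the abscission machinery, fell from 314.3 ± 3.41 to 222.3 ± 5.46 CPM (-0.50), and CIT by 0.21. ASPM, a spindle pole protein, rose from 184.6 ± 20.6 to 256.5 ± 10.7 CPM (0.47), and TACC3 and DEPDC1 rose by 0.29 each.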

How the data were processed

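RNA-seq of 786-O cells comprised 3 control and 3 NFE2L3 knockdown libraries, grouped by title. According to the methods and the labels, the authors trimmed reads (Trimmomatic 0.36), merged reads with the same molecular identifier, aligned them with STAR 2.5.3a to the Ensembl human genome, counted exonic reads with Subread 1.5.1 and tested with edgeR 3.12.1. The deposited values are raw counts per gene, with exon length and coordinates, which matched RefSeq GRCh38.p14 for 42 of 42 genes. CPM, TPM, log2 fold changes, SE and 95% intervals were computed from them. Genes were filtered by filterByExpr (minimum count 10), scaled by TMM and compared by the quasi-likelihood F-test in edgeR 4.0.16 (limma 3.58.1, R 4.3.3), with Benjamini-Hochberg adjustment over 19916 genes and a threshold of 0.05. The procedure was tested on simulated data. An exact permutation of 3 against 3 libraries cannot go below p = 0.1, and separate cultures are not stated, so p-values may measure technical spread only. Members and gene lists were chosen with earlier results of these data known. Values are given for every called gene, the cyclins, CDK1 and the checkpoint genes, and for up to 3 genes per direction in each other list by smallest adjusted p. Levels of CENPA, SPC25, PLK1, CDC20, MKI67, TPX2 and ESPL1 and the change of SMC2 were added after values were seen. One overlap and a marker level are not reported here. Alternatives tried were 3 other scalings, 2 other filters, DESeq2 1.42.0, limma-voom, the edgeR exact test, halved counts, length offsets, a replicate block and leaving out each library.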

Additional observations from a re-analysis of the deposited data

How the results depend on the processing

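The 9 higher and 7 lower genes were the same genes under DESeq2, limma-voom, scaling by RLE, by upper quartile or by library size alone, the edgeR exact test, the stricter filter, halved counts, exon length offsets and the replicate block. Without a filter CDC20 joined the lower genes, which made them 8. With an unadjusted p under 0.05 and a fold of at least 2, 1 of the 42 was higher (CENPE, which was under 2-fold without control 3) and 0 were lower, and 144 and 75 of all tested genes. Leaving out 1 library gave 7 to 10 higher and 7 to 9 lower genes, and 13 of the 16 calls held in every setting. BUB1B, NUSAP1 and PRC1 lost theirs as given above, and PLK1, CDC20 and MKI67 were called without control 1 and CDC25C without control 3. The counts over all tested genes then ran from 1966 to 2620 higher and from 2210 to 2892 lower. The median of the kinases and cyclins ran from -0.129 (without control 1, when PLK1 became the median gene) to -0.029, and that of the kinetochore and checkpoint genes from -0.0054 to 0.032.

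No called gene changed direction. The uncalled genes that did had log2 values near 0. PTTG1 was 0.0026 under RLE, 0.0194 under upper quartile, 0.00134 under the stricter filter, 0.00266 in DESeq2, 0.00215 with halved counts and 0.0118 with length offsets. Unscaled library sizes gave NUF2 -0.0115 and CCNB2 -0.0044, and the fit without a filter gave NUF2 -0.0038. Over the libraries left out, the log2 fold change ran from -0.0463 to 0.064 for PTTG1, from -0.0512 to 0.0409 for NUF2, from -0.0316 to 0.0312 for CCNB2, from -0.0107 to 0.0568 for BIRC5, from -0.0755 to 0.0223 for TTK, from -0.0511 to 0.00146 for CDCA8, from -0.129 to 0.0259 for PLK1, from -0.0553 to 0.000102 for MAD2L1 and from -0.0109 to 0.047 for NDC80. The cause was not tested.

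No pairing of the samples by replicate number was seen, although 3 libraries per group could miss a weak one. Same-numbered libraries had correlations of their deviations from the group means of -0.0752, -0.185 and -0.102 over 7592 genes, and no control library correlated best with the knockdown of its own number. The fit with the replicate block gave 9 higher and 7 lower of the 42 genes. Even counts were in excess (67.6% to 69.9% of counts above 0 and under 30), for which the halved counts were tried, so counting precision may be lower than the totals imply.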

Other observations

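The called genes differed in base composition and length, which is given as a description without a test. The median GC content of the longest transcript was 40.8% for the 9 higher genes, 53.3% for the 7 lower genes and 43.2% for the 26 others, and the median exon length was 4547, 2928 and 3636 bases in the same order. Across the 42 genes, which share their libraries and are not independent replicates, Spearman's rho of the log2 fold change was -0.32 with GC content and 0.25 with exon length. Across the 7592 genes of comparable level the values were 0.03 (for the 6892 with a GC value) and 0.10. The part of GC content in the changes was not tested, and with length offsets the same 9 and 7 genes were called.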
